A study of Mus musculus with 4 samples.

Results

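The interleukin-1 family and its receptors are described here through 10 genes chosen by symbol, of 49585 genes in the count files: the ligands Il1a, Il1b, Il33 and Il18, the antagonist Il1rn, the receptor chains Il1r1, Il1rap and Il1rl1, the adaptor Myd88 and the kinase-like inhibitor Irak3. The RNA came from C2C12, a mouse line of myoblasts (strain C3H) that fuse into myotubes in low serum, and was sequenced as stranded mRNA libraries. Cells had been transduced with an empty pLXSN retrovirus or with one that overexpresses C/EBPβ, a basic leucine zipper factor that binds DNA and is known from acute-phase and cytokine gene regulation. All cells of both groups passed through G418 at 1200 µg/ml for 7 days and were kept as pools of resistant cells. They proliferated for 2 days and were then held for 2 days in 2% horse serum from 90% confluency. Each group held 2 libraries. Nothing in the labels ties them to separate cultures, and p-values therefore measure only how far these libraries spread, which may be technical. The promoter that drives the transgene and the species of its cDNA are not given in the sources used here.

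Interleukin-1 signalling begins when IL-1α or IL-1β binds the receptor IL1R1, which then recruits the accessory chain IL1RAP; the paired intracellular domains bind MYD88 and kinases of the IRAK family, and the signal runs to NF-κB and the MAP kinases. IL-1 receptor antagonist, the product of Il1rn, occupies IL1R1 without recruiting the accessory chain. IL-33 uses the receptor ST2, the product of Il1rl1, with the same accessory chain, while IL-18 has a receptor of its own. IRAK3 lacks kinase activity and restrains the pathway. In muscle, these cytokines are known from injury and inflammation, where IL-33 comes largely from fibro-adipogenic progenitors and IL-1β from myeloid cells.

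The libraries held 36461091 to 51537847 fragments assigned to genes. Cebpb, the overexpressed gene, stood at 42.7 and 41.3 CPM (fragment counts divided by the TMM-scaled library total, in the usual CPM unit) in the controls and at 502 and 442 CPM in the overexpressing libraries. The labelled cell type was checked on 8 muscle genes, among them Myod1, Myog and Des. Over all genes tested, 20.9% fell (adjusted p under 0.05 in edgeR's quasi-likelihood test). All 8 muscle genes were present in every library and all fell. Their summed level was 15990 and 17315 CPM in the controls against 4289 and 6658 CPM in the overexpressing libraries, of which replicate 2 was the higher. In bulk samples, fewer cells of a type and less RNA per cell cannot be told apart.

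With C/EBPβ, 8 of the 10 genes rose and none fell, among 9 that could be tested. Over all 15886 genes tested, 22.3% rose (adjusted p under 0.05, edgeR's quasi-likelihood test with Benjamini-Hochberg adjustment), 20.9% fell and 43.2% changed in either direction. Among the 9, 7 rose at least 2-fold, against 9.11% of all genes tested. The genes that did not enter the count of rises were Il18, which did not pass, and Il1a, which was too low to test. The 9 tested genes all had both overexpressing libraries above both controls, as had 38.4% of all genes tested. The untested Il1a did too, but with only 1 and 2 fragments against 3 and 3. The median log2 fold change of the 9 genes was 1.81, beside 0.012 over all genes tested, and 1.55 for all 10 in a fit without the filter on low counts.

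**Figure D1:**
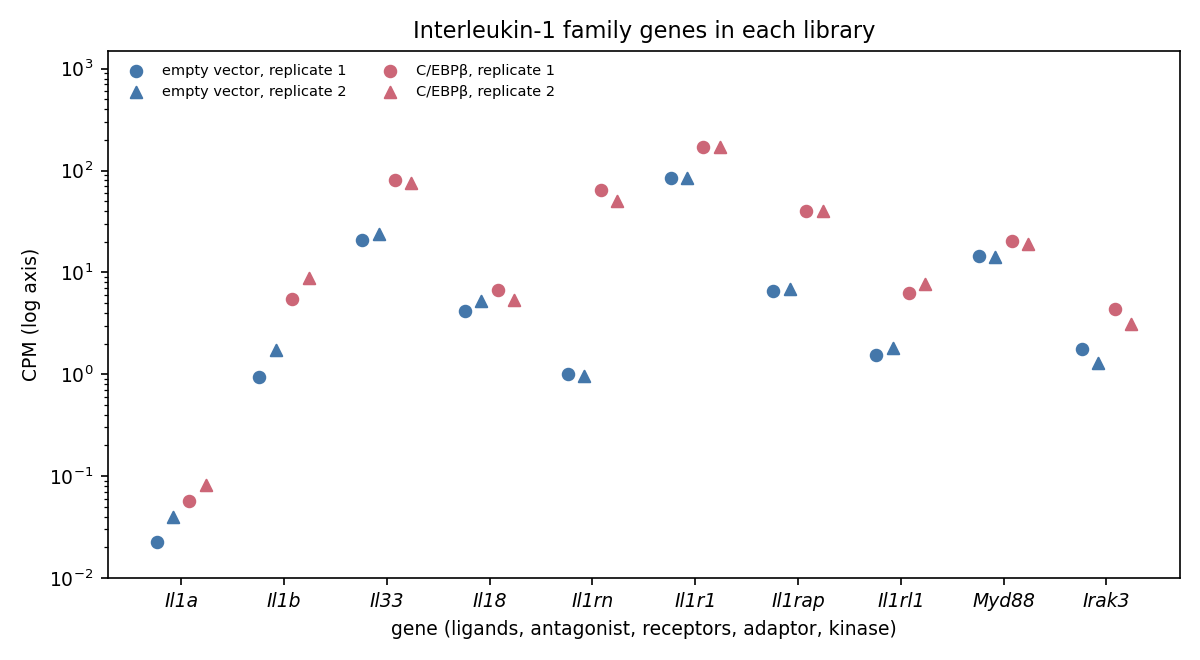
Level of each of the 10 genes in each library, in CPM on a log axis; blue stands for the empty vector, red for C/EBPβ, circles for replicate 1 and triangles for replicate 2. The red points lie above the blue ones for every gene, by far the most for Il1rn (about 1 CPM against 64.8 and 50.1 CPM) and the least for Il18, where 5.22 CPM in a control comes close to 5.39 CPM in an overexpressing library.

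Il1rn, the receptor antagonist, had the largest rise of the family. It stood at 1.01 and 0.949 CPM in the controls (45 and 48 fragments) and at 64.8 and 50.1 CPM in the overexpressing libraries (3384 and 1831 fragments). Replicate 2 minus replicate 1 was -0.089 log2 units in the controls and -0.37 in the overexpressing libraries, so the 2 groups lay far apart beside the spread within each. The mean rose from 0.979 ± 0.0428 to 57.4 ± 10.4 CPM (mean ± SD, n = 2 each), 58.6-fold. The log2 fold change of 5.87 (SE 0.18, adjusted p = 1.27e-06 in edgeR's quasi-likelihood test) ranked 89 among 15886 genes ordered from the largest rise. The gene (ENSMUSG00000026981) covers bases 24336853 to 24351494 of chromosome 2, plus strand, in GRCm38. RefSeq places 3 transcription starts in it, and counts per gene cannot tell the transcripts for the secreted form from those for the intracellular forms.

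Promoter windows of all 10 genes were read from RefSeq (GRCm38.p6) because 8 of them rose and the overexpressed protein binds DNA. There are 16 windows, each running from 250 bases before to 50 bases after an annotated start. Windows 2 and 3 of Il1rn overlap. For Il1rn, Il1rap, Il18 and Myd88 no RefSeq start matched the start of a GENCODE M21 transcript exactly. The Myd88 window, at 119339969 to 119340268 on the minus strand, lies inside the counted gene, which runs to 119341411. They were searched on both strands for the C/EBP forms TTNCGNAA and TTGCNNAA, which overlap where the letters after TTGC begin with G, for an NF-κB form (GGGA, any 4 bases, CC), for the AP-1 form TGANTCA and for the CRE form TGACGTCA. The 250 bases before the start are shown for the most upstream start of Il1rn, the gene with the largest rise, and for the 3 windows of Il1r1, Il1rl1 and Il33 in which a C/EBP form lies before the start; capitals mark the matches, and all 4 are on the plus strand, read 5′ to 3′.
Il1rn, chr2:24336610-24336859: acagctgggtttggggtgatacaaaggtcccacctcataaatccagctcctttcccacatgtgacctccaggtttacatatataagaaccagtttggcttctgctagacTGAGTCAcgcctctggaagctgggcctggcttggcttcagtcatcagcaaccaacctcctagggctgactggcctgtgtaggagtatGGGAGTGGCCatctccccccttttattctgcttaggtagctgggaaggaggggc
Il1r1, chr1:40224830-40225079: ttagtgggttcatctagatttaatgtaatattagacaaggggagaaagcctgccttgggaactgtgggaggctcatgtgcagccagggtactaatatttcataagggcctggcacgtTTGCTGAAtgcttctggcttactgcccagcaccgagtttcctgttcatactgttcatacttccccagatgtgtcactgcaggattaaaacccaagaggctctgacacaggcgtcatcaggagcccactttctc
Il1rl1, chr1:40429320-40429569: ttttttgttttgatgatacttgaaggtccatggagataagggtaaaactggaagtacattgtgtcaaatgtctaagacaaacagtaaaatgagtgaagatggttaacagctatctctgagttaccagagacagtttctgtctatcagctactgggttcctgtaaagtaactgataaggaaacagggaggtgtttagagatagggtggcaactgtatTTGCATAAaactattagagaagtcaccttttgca
Il33, chr19:29945540-29945789: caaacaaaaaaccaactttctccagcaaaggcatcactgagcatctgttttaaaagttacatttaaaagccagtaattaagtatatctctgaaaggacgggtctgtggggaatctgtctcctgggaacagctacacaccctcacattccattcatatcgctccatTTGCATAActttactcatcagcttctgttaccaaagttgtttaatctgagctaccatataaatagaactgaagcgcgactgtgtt

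In the Il1rn window the capitals are an AP-1 form that begins 141 bases before the start and an NF-κB form that begins 54 bases before it. None of the 3 Il1rn windows holds either C/EBP form. The capitals are a C/EBP form 133 bases before the more upstream start of Il1r1, 34 bases before that of Il1rl1 and 85 bases before the more downstream start of Il33. The other window of each of these genes holds neither C/EBP form. The letters TTGCATAA stand in both the Il1rl1 and the Il33 window. A C/EBP form was also found 9 bases into the first transcribed bases from the more upstream start of Irak3. In all, 4 of the 16 windows held a C/EBP form, beside 12.3% of 32851 windows of the same length in the whole table. An NF-κB form stood in 3 windows (Il1rn, Il1rap and Irak3), beside 20.7% of all windows, and an AP-1 form in 2 (Il1rn and Il1a), beside 7.81%. No window held the CRE form, which 1.79% of all windows hold. A match is a run of letters and not a measured binding site.

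Among the agonist ligands, Il33 was the most abundant per length in both groups and rose. Il33 encodes a nuclear cytokine released from damaged cells. It stood at 20.66 and 23.995 CPM in the controls and at 80.9 and 75.8 CPM in the overexpressing libraries. The groups were far apart, and replicate 2 minus replicate 1 was 0.22 log2 units in the controls and -0.094 in the overexpressing libraries. The mean rose from 22.3 ± 2.36 to 78.3 ± 3.60 CPM (n = 2 each); on the log2 scale the change was 1.81 (SE 0.095, adjusted p = 9.65e-06 in edgeR's quasi-likelihood test).

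Il1b, the secreted IL-1 agonist that is cut from a precursor by caspase-1, was low in the controls and rose. Its level was 0.942 and 1.74 CPM in the controls (42 and 88 fragments) and 5.47 and 8.72 CPM in the overexpressing libraries (286 and 319 fragments). Replicate 2 was the higher in both groups, by 0.885 and 0.672 log2 units, so that Il1b varied more between libraries than Il33 did. The log2 fold change was 2.38 (SE 0.35, adjusted p = 0.00232 in edgeR's quasi-likelihood test). Il1a, the agonist that also acts while bound to the cell surface, was close to the detection limit. It had 1 and 2 fragments in the controls and 3 and 3 in the overexpressing libraries, a ratio of 2.14 with a 95% exact binomial interval from 0.458 to 13.2, which covers counting error only. A difference in Il1a was not detectable at this depth.

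Il18, the interferon-γ-inducing member of the family, did not pass the test. It stood at 4.13 and 5.22 CPM in the controls and at 6.64 and 5.39 CPM in the overexpressing libraries. The lower overexpressing library lay just above the higher control. The log2 fold change was 0.37 (SE 0.18, adjusted p = 0.143 in edgeR's quasi-likelihood test), and without overexpressing replicate 2 it was 0.485 (adjusted p = 0.0368), past the threshold.

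All 3 receptor chains rose. Il1r1, the signalling receptor for IL-1α and IL-1β, was the most abundant of the family in CPM, at 83.6 and 84.6 in the controls and at 171 and 172 in the overexpressing libraries. Replicate 2 minus replicate 1 was 0.017 log2 units in the controls and 0.0080 in the overexpressing libraries. Its log2 fold change was 1.03 (SE 0.077, adjusted p = 5.03e-05 in edgeR's quasi-likelihood test). Il1rap, the accessory chain that the IL-1, IL-33 and IL-36 receptors share, rose more, from 6.55 and 6.80 to 40.4 and 40.4 CPM. On the log2 scale this change was 2.60 (SE 0.098, adjusted p = 2.12e-06), and only 2.73% of genes tested had a larger one. Il1rl1, which encodes the IL-33 receptor ST2 in a membrane and a soluble decoy form, rose from 1.55 and 1.82 to 6.22 and 7.76 CPM (log2 fold change 2.04, SE 0.20, adjusted p = 0.000165). For Il1rap and Il1rl1, counts per gene cannot tell the membrane from the soluble form.

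The ratios between members differed between the groups. Per length of exon, Il1rap stood at 0.0439 and 0.0450 of the level of Il1r1 in the controls and at 0.132 and 0.131 in the overexpressing libraries. The ratio of Il1rn to Il1r1 per length moved from 0.0139 and 0.0129 to 0.435 and 0.334. The antagonist also outgrew the agonist: Il1rn per length was 0.369 and 0.188 of Il1b in the controls, and 4.08 and 1.98 times Il1b in the overexpressing libraries. Per length, the order of the 2 genes was thus reversed in every library of one group against the other. In CPM it was not, since control replicate 1 already had Il1rn (1.01) above Il1b (0.942). Length here is that of all annotated exons of a gene together (5535 bases for Il1rn, 1907 for Il1b). It may exceed the length of the transcripts present. Il33 and its receptor moved nearly alike, with a ratio of Il33 to Il1rl1 per length of 31.9 and 31.5 in the controls and 31.1 and 23.3 in the overexpressing libraries. These ratios are of mRNA levels and were not tested.

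**Figure D2:**
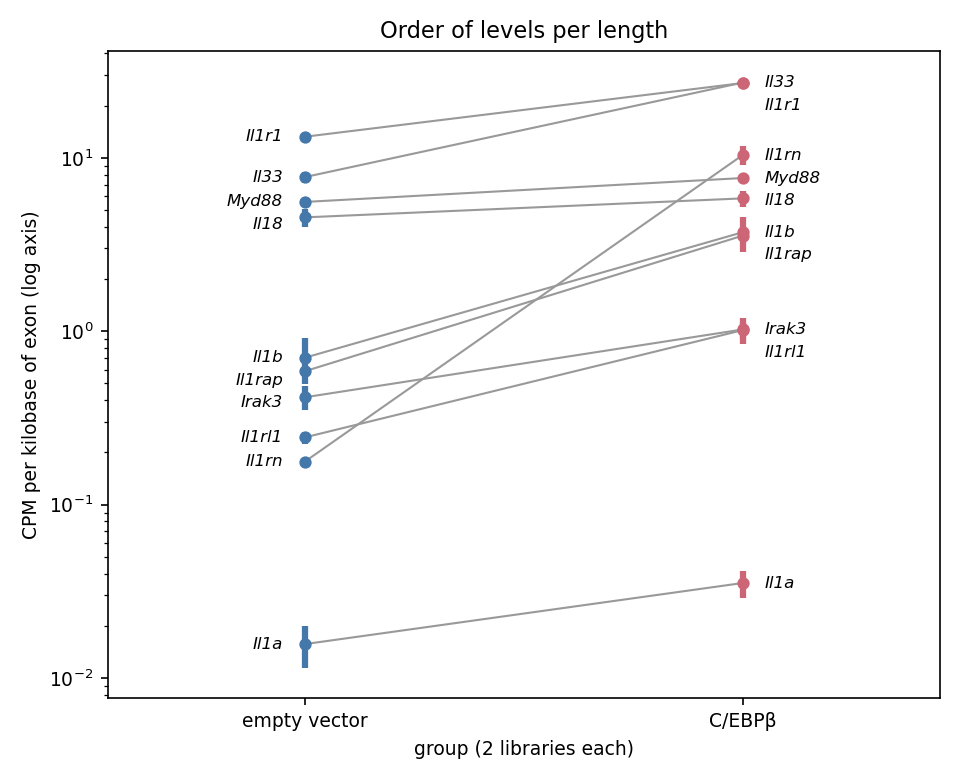
Mean level per kilobase of exon of each gene in the empty vector group (left) and the C/EBPβ group (right), on a log axis; points are means of 2 libraries, thick bars span the 2 libraries, and lines join the same gene. Il1rn moves from the ninth place (0.177) to the third (10.4), while Il1r1 and Il33 come to the same level at the top (27.0 and 27.1).

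Ordered by CPM per kilobase of exon, the controls ran from Il1r1 (13.2) through Il33 (7.74), Myd88 (5.56) and Il18 (4.53) to a lower group of Il1b (0.703), Il1rap (0.588), Irak3 (0.416), Il1rl1 (0.244) and Il1rn (0.177), with Il1a (0.0157) last. Of these neighbours only Il1b and Il1rap had overlapping libraries. In the overexpressing libraries the order was Il33 (27.1), Il1r1 (27.0), Il1rn (10.4), Myd88 (7.64), Il18 (5.83), Il1b (3.72), Il1rap (3.56), Irak3 (1.02), Il1rl1 (1.01) and Il1a (0.0353). Here Il33 overlapped with Il1r1, Il1b with Il1rap, and Irak3 with Il1rl1. Of the summed CPM of the 10 genes, Il1rn took 0.749% and 0.675% in the controls and 16.2% and 13.1% in the overexpressing libraries, while the share of Il1r1 went from 62.1% and 60.2% to 42.8% and 45.0%.

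Myd88, the adaptor that joins these receptors and most Toll-like receptors to the IRAK kinases, rose slightly. It stood at 14.4 and 14.2 CPM in the controls and at 20.3 and 19.1 CPM in the overexpressing libraries. The groups did not overlap, and the log2 fold change was 0.46 (SE 0.10, adjusted p = 0.00775 in edgeR's quasi-likelihood test). Irak3, the inhibitory relative of the kinases, rose from 1.77 and 1.28 to 4.401 and 3.12 CPM, which is 1.31 on the log2 scale (SE 0.25, adjusted p = 0.00435). Replicate 1 was the higher for Irak3 in both groups, unlike for Il1b, with replicate 2 minus replicate 1 at -0.46 and -0.50 log2 units.

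The genes lie partly in clusters. Il1r1 and Il1rl1 stand with 4 other receptor genes of the family within 478 kb of chromosome 1, in the order Il1r2, Il1r1, Il1rl2, Il1rl1, Il18r1 and Il18rap, all on the plus strand. Only 3 of the 6 had enough fragments to be tested, and all 3 rose: Il1r1, Il1rl1 and Il18rap, the accessory chain of the IL-18 receptor, which went from 3.23 and 3.85 to 6.05 and 8.97 CPM (log2 fold change 1.07, SE 0.22, adjusted p = 0.00603 in edgeR's quasi-likelihood test). The other genes of this cluster had almost no fragments. Il18r1, the ligand-binding chain for IL-18, had 1 fragment in all 4 libraries together. Il1rl2, the IL-36 receptor, had 0 and 4 fragments in the controls and 2 and 1 in the overexpressing libraries. Il1r2, the decoy receptor for IL-1, had none in the controls and 3 in each overexpressing library.

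Il1rn is the last gene of a 198 kb ligand cluster on chromosome 2 that begins with the IL-36 genes. The 5 other genes of this cluster were all below 1 CPM in every library. Il36a and Il36b had no fragment in any library, which allows up to 0.0315 CPM over the controls (3 fragments). Il1f10 had 2 fragments in 1 overexpressing library, and Il36rn, the IL-36 receptor antagonist, had 1 fragment in the controls and 9 in the overexpressing libraries, a ratio of 9.64 with a 95% exact binomial interval from 1.34 to 423. Il36g, an IL-36 agonist, had 8 fragments in each control and 34 and 10 in the overexpressing libraries; it passed (log2 fold change 1.51, SE 0.50, adjusted p = 0.0418 in edgeR's quasi-likelihood test) but not in DESeq2 (adjusted p = 0.176), in limma-voom (0.0650), without control replicate 1 (0.122) or 2 (0.194) or without overexpressing replicate 1 (0.499). Il1a and Il1b lie on the minus strand of the same chromosome, from 129299610 to 129309972 and from 129364570 to 129371139.

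**Figure D3:**
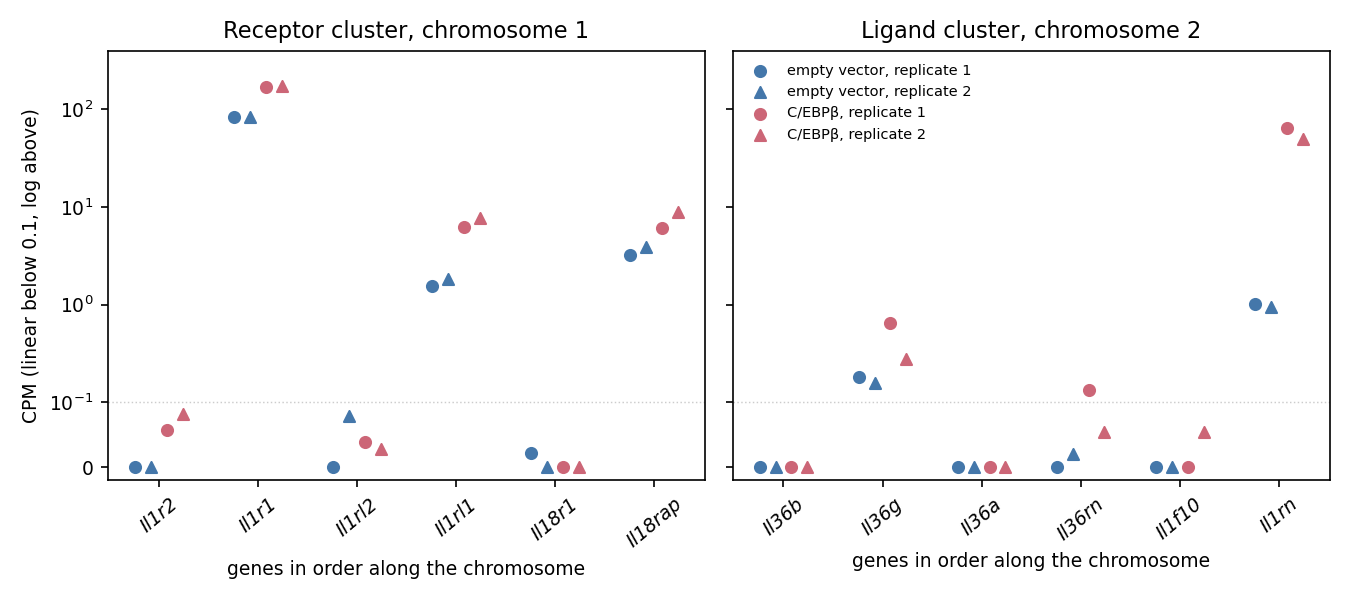
Level in CPM of the genes of the receptor cluster (left) and of the ligand cluster (right), placed in their order along the chromosome; the axis is linear below 0.1 CPM and logarithmic above, blue stands for the empty vector and red for C/EBPβ, with circles for replicate 1 and triangles for replicate 2. Il1r1, Il1rl1 and Il18rap are higher in both red libraries with near-silent genes between them, and on the right Il1rn alone stands above 1 CPM.

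Further pathway genes were taken from a list of 37, of which 25 had enough fragments. Of these, 11 rose and 1 fell, with a median log2 fold change of 0.22. Over all genes tested, 22.3% rose and 20.9% fell, with a median of 0.012. Il36g, among the 11, met the filter only through the overexpressing libraries. Without control replicate 2 the count was 7 rises and no fall. The kinases that act between MYD88 and TRAF6 were among the risers. Irak2 went from 17.7 and 18.1 to 34.8 and 34.0 CPM (log2 fold change 0.94, SE 0.088, adjusted p = 0.000147 in edgeR's quasi-likelihood test). Irak4, the first kinase of the chain, and Irak1 moved less, with log2 fold changes of 0.43 (adjusted p = 0.0297) and 0.27 (adjusted p = 0.0343). The call for Irak4 was lost when control replicate 2 (adjusted p = 0.199) or overexpressing replicate 1 (0.0602) was left out, and that for Irak1 without control replicate 1 (0.0593), control replicate 2 (0.198) and overexpressing replicate 1 (0.141). The ubiquitin ligase Traf6 and the kinase Map3k7, which act further down, did not pass (0.05 and -0.17). Peli2 and Peli3, ubiquitin ligases that act on the IRAK proteins, rose by 0.55 and 1.18, as did Irak1bp1 by 0.58. The related Peli1 did not pass (-0.12, adjusted p = 0.405 in edgeR's quasi-likelihood test). Ube2n, the ubiquitin-conjugating enzyme that works with TRAF6, was the gene that fell (-0.37, adjusted p = 0.0174), and it lost its call without control replicate 2 (0.125).

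The largest rises of this list were those of the inflammatory caspases. Casp1, which cuts the precursors of IL-1β and IL-18, rose from 0.426 and 0.534 to 3.31 and 3.36 CPM (log2 fold change 2.78, SE 0.24). Casp4, the caspase of the non-canonical inflammasome, rose from 2.15 and 2.10 to 7.69 and 7.96 CPM (log2 fold change 1.88, SE 0.16). Gsdmd, the pore protein that these caspases open, rose by 0.56. The listed platform genes for caspase-1 activation differed in level. Nlrp3 had 1 fragment in each group, Nlrc4 none, and the adaptor Pycard 15 in the controls and 8 in the overexpressing libraries. Aim2, another sensor, stood at 1.01 and 1.07 CPM in the controls and at 0.823 and 1.97 CPM in the overexpressing libraries. It did not pass (0.38, adjusted p = 0.493 in edgeR's quasi-likelihood test). Of the inhibitors that act outside the cell or at the receptor, Il18bp, the IL-18 binding protein, and Sigirr did not pass (0.22, SE 0.21, and -0.040, SE 0.31, on the log2 scale).

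A second list held 30 genes known to be induced by IL-1 through NF-κB. Of the 23 tested, 14 rose and 3 fell, with a median log2 fold change of 1.30, beside the same 22.3%, 20.9% and 0.012 over all genes tested. With a filter at a mean of 1 CPM the counts were 9 and 3 of 17 and the median was 0.31. That mean ran over all 4 libraries, so Mmp3 (0.135 and 0.0395 CPM in the controls) still entered through the overexpressing libraries. Among the risers, Steap4, Ptges, Birc3, Mmp3, Mmp13 and Saa3 had 11 fragments or fewer in each control. They met the filter of the main fit only through the overexpressing libraries, so being tested at all favoured a rise in them. The count of 14 and the median of 1.30 include them and are no independent sign of a response. Il6 entered in the same way and did not pass. The count of falls was 1 without control replicate 1 and also without control replicate 2, 5 without overexpressing replicate 2 and 6 with the replicate number as a block. The largest rises were those of the pentraxin Ptx3 (6.44, SE 0.22), the matrix metalloproteinase Mmp3 (5.33, SE 0.99), the metalloreductase Steap4 and the chemokine Cxcl5 (4.33, SE 0.33). Steap4 went from 2 fragments to 79, a ratio after scaling of 42.3 with a 95% exact binomial interval from 11.3 to 356. Mmp3 lost its call without control replicate 1 or 2 (adjusted p = 0.145 and 0.167). Chemokines Cxcl1, Ccl2 and Ccl7 also rose, by 3.86, 2.36 and 2.02. Their control libraries held 299 and 230, 295 and 408, and 465 and 448 fragments. Vcam1 rose by 0.67 and Zc3h12a, near the threshold, by 0.31 (adjusted p = 0.0459 in edgeR's quasi-likelihood test). The genes that fell were the cytokine Lif (-1.36), the NF-κB inhibitor Tnfaip3 (-0.92) and the NF-κB subunit Nfkb2 (-0.28). Nfkbia, the inhibitor that NF-κB induces as feedback, rose by 0.73, while Nfkb1, Relb and Nfkbiz did not pass (0.14, -0.19 and -0.25). Neither did Il6, Ptgs2 and Sod2 (1.30, -0.43 and -0.21). Cxcl2, Ccl20, Csf2, Csf3, Lcn2, Nos2 and Icam1 were too low to test. Lif lost its call without control replicate 1 or 2 (adjusted p = 0.212 and 0.216) and Nfkb2 without control replicate 1 or 2 or overexpressing replicate 1 (0.105, 0.0591 and 0.0971).

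**Figure D4:**
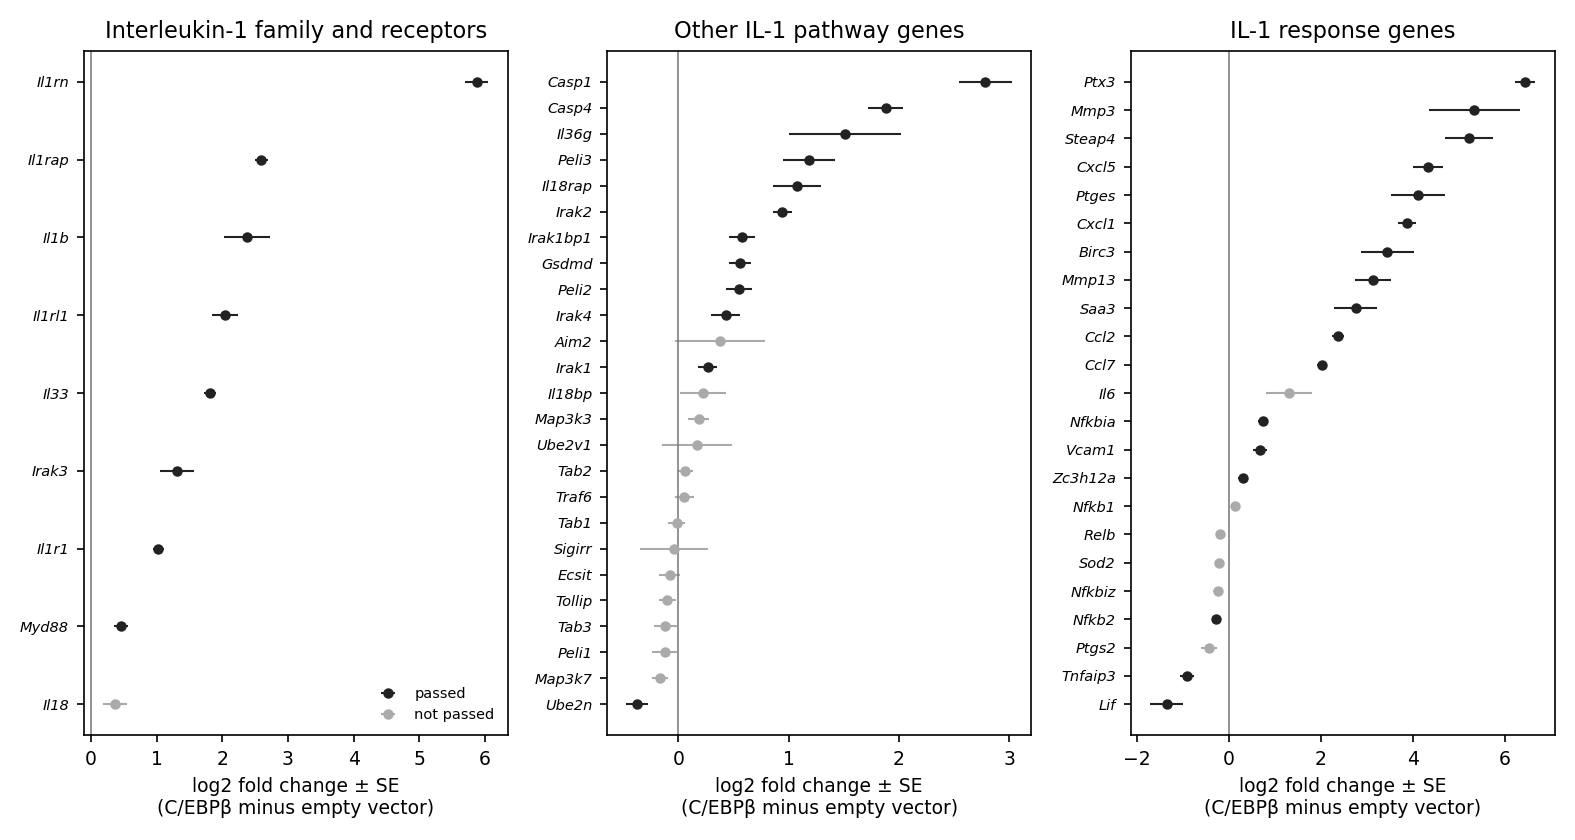
Log2 fold change (C/EBPβ minus empty vector) of every tested gene of the family (left), of the other pathway genes (middle) and of the IL-1 response genes (right); bars are standard errors, black points passed an adjusted p of 0.05 and grey points did not. On the left all 9 points lie to the right of 0 and all but that of Il18 are black, whereas in the middle panel most of the 25 lie between -0.37 and 0.58.

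Several of these genes are known from immune cells, and markers of such cells were measured beside them. Of 17 macrophage markers 7 were tested; Lyz2, Cd14 and Csf1r rose and Itgam fell. Their summed level was 8.52 to 9.37 CPM in the controls and 41.9 to 45.0 CPM in the overexpressing libraries, where Lyz2, whose near-identical copy Lyz1 makes its count uncertain, gave 27.2 CPM. The defining markers Adgre1, Fcgr1, Tyrobp, C1qa, C1qb and C1qc had no fragment in any library, and Ptprc, the pan-leukocyte antigen, had 2 in all. Of 8 neutrophil markers only S100a8 was tested, and it rose from 1 fragment to 225, a ratio of 241 with a 95% exact binomial interval from 42.8 to 9563, while S100a9, Csf3r and Cxcr2 had none. Of the mast cell markers, which often accompany ST2, Kit, Cpa3 and Fcer1a had no fragment, and Mcpt4 and Cma1 rose to 0.301 and 0.308 CPM. Of 7 T cell and innate lymphoid markers only Lck was tested. It rose to 0.913 CPM, from 24 and 9 fragments in the controls to 44 and 36. Cd3g had 6 and 8 fragments in the controls and 0 and 2 in the overexpressing libraries. Thy1 had 3 fragments in control replicate 1 alone, and Cd4 and Cd8a had no fragment. Among the risers named here, Lyz2, S100a8, Mcpt4, Cma1 and Lck met the filter only through the overexpressing libraries. Of 7 fibroblast and fibro-adipogenic markers Pdgfra, Col1a1, Col3a1 and Dpt rose and Lum and Cd34 fell, and their sum went from 3727 to 4649 CPM up to 13059 to 13181 CPM. Col3a1, a fibrillar collagen, made up most of that sum, at 3979 and 3127 CPM in the controls and 12188 and 12136 CPM in the overexpressing libraries. Pdgfra, the receptor that defines fibro-adipogenic progenitors, went from 15.5 and 8.42 to 92.1 and 79.0 CPM. No tested endothelial or epithelial marker rose: 2 of 3 fell in the one list (Tek and Cldn5) and 2 of 2 in the other (Krt14 and Cdh1). Over all genes tested, 22.3% rose and 20.9% fell. Tek, Cldn5, Cdh1 and the macrophage marker Itgam reached the filter's level in both controls but not in both overexpressing libraries. Being tested at all thus favoured a fall in them. The part of the fibroblast-like markers in the rise of Il33, Il1r1 and Il1rl1 was not tested.

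In the authors' deposited table, 9 of the 10 genes are listed, and Il1a is not among them. The log2 fold change in the authors' deposited table was 5.69 for Il1rn, 2.52 for Il1rap, 2.26 for Il1b, 1.94 for Il1rl1, 1.62 for Il33, 1.20 for Irak3, 0.96 for Il1r1, 0.39 for Myd88 and 0.30 for Il18. That table may rest on other libraries than the 4 described here: its mean normalised signal is 2536 for Il1rn and 102 for Il1b, whereas Il1rn had 45, 48, 3384 and 1831 fragments and Il1b 42, 88, 286 and 319. Its values are therefore given side by side with those above and not compared with them. The standard error of Il33 in the authors' deposited table, 0.39, is the largest of the 9. Il18 had an adjusted p of 0.309 in the authors' deposited table, and the other 8 genes were past 0.05 there too.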

How the data were processed

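For each of 4 libraries the authors deposited unnormalised counts of fragments by gene. HISAT2 2.0.4 (GRCm38) and featureCounts 1.4.6 are named per the submitters' processing notes; per the file headers it was featureCounts 1.5.1, run on paired fragments, reverse strand, GENCODE M12, with multi-mapping options left unset. The authors' deposited comparison table holds p-values, a test score, a mean normalised signal and log2 fold changes with standard errors; DESeq2 is named in the submitters' processing notes, and the libraries that entered are not stated there and may be others than these 4.

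Groups came from the sample titles. Symbols matched 49326 of 49585 identifiers. Genes passing filterByExpr (minimum count 10, minimum total 15) were scaled by TMM and tested by quasi-likelihood (edgeR 4.0.16 under R 4.3.3; robust glmQLFit, then glmQLFTest), 2-sided, Benjamini-Hochberg over all genes, threshold 0.05; standard errors came from the F statistic. DESeq2 1.42.0, limma 3.58.1, other scalings and filters, a replicate block and leaving out each library were alternatives. With 2 libraries a group the smallest exact permutation p is 0.333. The replicates were no copies of each other (chi-square per degree of freedom 20.0 and 28.5). No exon of the 10 genes overlapped another gene on the same strand, and at most 0.126% of their 50-base windows were found in transcripts of other genes (GENCODE M21).

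The genes and lists were chosen with earlier results of these data known. Named by rule were the 10 genes, Cebpb, the receptor and kinase genes of the pathway list, and up to 4 largest rises and falls of each list. Traf6, Map3k7, Peli1, Peli2, Irak1bp1, Gsdmd, Nlrp3, Nlrc4, Pycard, Aim2, Nfkbia, Nfkb1, Relb, Nfkbiz, the further IL-1 response genes and the cluster and marker genes were named after their values were seen.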

Additional observations from a re-analysis of the deposited data

How the results depend on the processing

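The 8 rises among the 10 genes were called under each of the 12 alternatives, which gave 8 or, without overexpressing replicate 2, 9 calls, the ninth being Il18. The log2 fold change of Il1rn ran from 5.68 to 6.03 and that of Il1b, the least even between libraries, from 1.99 to 2.90. The largest adjusted p was 0.04999 for Myd88 and 0.0406 for Irak3, both without control replicate 2. Il18 ran from 0.20 to 0.55 when each library was left out in turn. Over all genes, leaving out each library gave 4005 to 7414 calls (the lowest without control replicate 2) and among the other pathway genes 7 to 12. Sigirr, which never passed, turned to 0.017 with library sizes alone and ran from -0.30 to 0.25 when libraries were left out. The replicate number as a block gave 7676 calls over all genes beside 6864 without it and 8 of the family in both fits; same-numbered libraries deviated together with r = 0.186 across genes, a hint from the data and not the design. With 1 library left in a group, the lone library is assumed to vary like the others. Depth limits Il1a, Il1r2, Il1rl2, Il18r1 and the IL-36 genes. With no filter, Il1a had a log2 fold change of 1.03 (adjusted p = 0.629 in edgeR's quasi-likelihood test).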
